A study of Mus musculus with 12 samples.

Results

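Embryoid bodies (EBs) of the CTSL knockdown line (shCTSL) were compared with those of the scramble control line (shSC) at Day 2 of differentiation by RNA-seq, with 2 biological replicates in each group, which makes 4 of the 12 libraries of the study. The 4 libraries are those whose titles name Day 2. The control samples are labelled scr and WT, and the knockdown samples are labelled KD and CTSL KD. Both lines derive from CCE-Nanog-GFP mESCs, mouse embryonic stem cells with a GFP reporter of Nanog. Both carry a short hairpin RNA. The CTSL hairpin came in the lentiviral vector pLKO.1, and the vector of the scramble control is not named in the methods. Both lines were selected with puromycin and sorted for GFP, and formed EBs in rotation without LIF and with all-trans retinoic acid. Day 0 samples are the undifferentiated mESCs, and Day 4 samples are EBs grown for longer in the same way. One shCTSL line was sequenced, the labels do not name its hairpin, and knockdown leaves part of the transcript, so an effect of CTSL loss cannot be told apart from an effect of that line. The shCTSL Day 2 replicate 1 departed from its replicate, so each shCTSL library was set against the 2 shSC libraries on its own, and the genes on which both shCTSL libraries agreed are described.

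Cathepsin L is a cysteine protease of the lysosome that is also found in the nucleus, where it can clip histone tails. On withdrawal of LIF, mESCs leave pluripotency and form EBs that hold precursors of the germ layers, and retinoic acid acts through nuclear receptors to switch on Hox genes and its own degrading enzymes. Endothelial and blood cells arise in EBs from a shared mesodermal precursor that bears the VEGF receptor Kdr and is specified by factors such as Etv2 and Tal1.

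The Day 2 libraries held 15415364 to 27155553 counted reads over 24495 genes, of which 15532 were expressed highly enough to test. Values below are normalized CPM, that is read counts scaled to the library total (CPM) after TMM normalization, which compare 1 gene between libraries but not genes with each other. Normalized read counts of Ctsl, the knockdown target (mm9, chr13:64464522-64471614), were 369 and 391 CPM in shSC and 211 and 155 CPM in shCTSL. Both shCTSL libraries lay below both controls, at 55.4% of control in replicate 1 and 40.9% in replicate 2. The markers fitted retinoic acid treated EBs in all 4 libraries. The summed level of 6 retinoic acid response genes was 2042 and 2068 CPM in shSC and 2201 and 2706 CPM in shCTSL, against 7.84 CPM in shSC mESCs at Day 0. The summed level of 5 pluripotency markers was 700 to 821 CPM, against 4787 CPM at Day 0. Trophoblast markers summed to 4.95 to 7.57 CPM and Tpbpa was at 0 in the 4 libraries. Fibroblast markers summed to 31.0 and 31.7 CPM in shSC and to 23.8 and 27.3 CPM in shCTSL. The 8 tested genes of the longer fibroblast list had median log2 fold changes of -0.48 in replicate 1 and -0.47 in replicate 2. Of these, 4 lay below both controls in both shCTSL libraries and 0 above, where 22.7% of all genes lay below. None of the 8 was called in both libraries, but only 0.348% of all genes were, so this count says little about the list. In RNA of whole EBs, fewer cells of a type and less RNA per cell cannot be told apart.

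Replicate 1 of shCTSL differed widely from the controls and replicate 2 sat close to them. Transcripts of ribosomal proteins, of the respiratory chain and of histones, most of them short, were higher in replicate 1, and long transcripts were lower. Genes were called with an adjusted p under 0.05 in edgeR's quasi-likelihood test and at least a 1.5-fold change. Against shSC, 5014 genes were called in replicate 1, or 32.3% of the genes tested, with 2414 higher and 2600 lower. In replicate 2, 99 genes were called (0.637%), with 25 higher (0.161%) and 74 lower (0.476%). Each of these tests rests on 1 shCTSL library, which is assumed to vary like the groups that have 2. The libraries of shCTSL differed from each other at 4627 genes (29.8%), a comparison of libraries and not of conditions. The SD across genes of the log2 ratio between them was 0.604, compared with 0.178 for the shSC Day 2 pair. Against the shSC Day 2 mean this SD was 0.607 for replicate 1 and 0.239 for replicate 2. Replicate 1 did not sit closer to another day: against shSC Day 0 and Day 4 its SD was 1.37 and 1.01.

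The departure of replicate 1 followed transcript length. Genes were ranked by exonic length in the GENCODE M1 annotation of mm9 and split into 10 groups of 1513 to 1516. The median log2 fold change of replicate 1 went from 0.72 in the group of shortest genes to -0.67 in that of the longest. In replicate 2 the medians of the 10 groups lay between -0.04 and 0.02. Of the shortest genes 754 were called higher and 40 lower in replicate 1, and of the longest 14 were called higher and 793 lower. When each library's trend with length was removed by offsets in the fit, the calls of replicate 1 were 3024 (19.5%), so the trend took in part of its departure and not all of it.

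**Figure D1:**
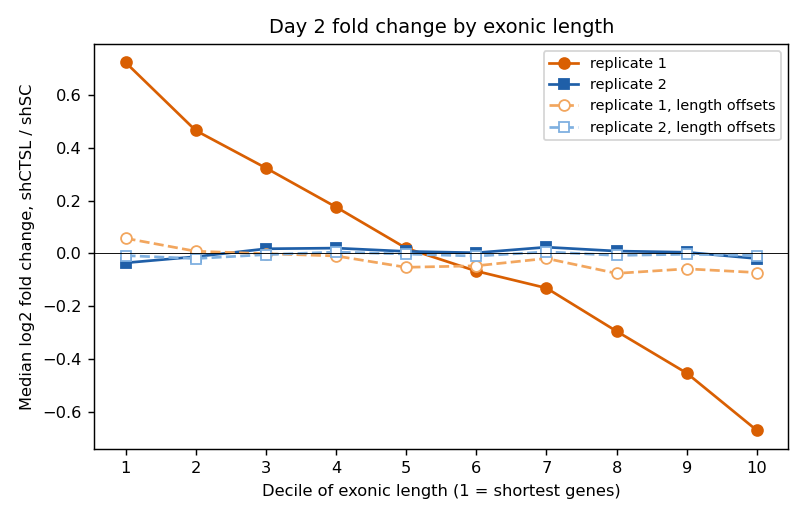
Median log2 fold change of each shCTSL Day 2 library against shSC (vertical axis) over 10 groups of genes ranked by exonic length (horizontal axis, shortest at 1), before (filled symbols) and after (open symbols) removal of the length trend. Replicate 1 runs from 0.72 to -0.67, while replicate 2 stays between -0.04 and 0.02.

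Large groups of genes were called in replicate 1 and not in replicate 2. The share of all genes called higher was 15.5% in replicate 1 and 0.161% in replicate 2. Of 74 cytosolic ribosomal protein genes, 57 were called higher in replicate 1 and 0 in replicate 2, with median log2 fold changes of 0.94 and -0.10. Of 76 nuclear genes for oxidative phosphorylation subunits, 59 were called higher in replicate 1 and 0 in replicate 2, with medians of 0.93 and -0.06. Clustered histone genes, whose main transcripts lack a poly(A) tail, had 17 of 24 tested members called higher in replicate 1 and 0 in replicate 2, with medians of 1.65 and 0.07. With length offsets the replicate 1 medians were 0.40, 0.41 and 0.86, and 26, 17 and 7 members were called higher, where 8.23% of all genes were. Over all genes tested the medians were 0.00 in both libraries. Unlike these lists, the 16 laminins and other basement membrane proteins, with a median exonic length of 8308 bases, had a median of -0.52 in replicate 1 and 0.20 in replicate 2, and the first became 0.10 with length offsets.

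Noncoding RNAs made without a poly(A) tail were among the 10 genes with the largest differences upward from replicate 2 to replicate 1. Rn45s, the precursor of ribosomal RNA, stood at 1530 and 6603 CPM in shSC, 32520 CPM in shCTSL replicate 1 and 4994 CPM in shCTSL replicate 2. It took 3.43% of the raw counts of replicate 1, against 0.170 to 1.43% in the other 11 libraries. Rpph1, the RNA of ribonuclease P, was at 2.76 and 6.70 CPM in shSC, 24.8 CPM in replicate 1 and 3.79 CPM in replicate 2. Rmrp, the RNA of the related ribonuclease MRP, was at 0.664 and 6.08 CPM, 27.8 CPM and 4.04 CPM in the same order. In each of the 3 the replicate 1 value lay above the other Day 2 libraries, and the 2 shSC libraries also differed from each other. The 10 largest differences upward also held Mir6236, Rprl3, Scarna13, the linker histones Hist1h1a and Hist1h1d, and the low-level genes Ahsg and Gtsf1. The 10 largest differences downward were at genes low at Day 2: Aff2, Aldh1a3, Kcna3, Kcnq5, Mir3113, Nebl, Slc28a3, Vmn2r1, Xylt1 and Zfa-ps were at most 2.43 CPM in any Day 2 library. Xylt1, which starts the sugar chains of proteoglycans, had 2.22 and 1.97 CPM in shSC, 0.123 CPM in replicate 1 and 2.43 CPM in replicate 2. The part of RNA quality, poly(A) selection or library preparation in the departure of replicate 1 was not tested.

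When the 4 libraries were compared as groups of 2, 10 genes were called (0.0644%), and 3014 genes had an unadjusted p under 0.05. Lower in shCTSL were Ctsl, Rian, Meg3, Zfp951, Arhgap30, Lncenc1, Bmt2, Igf2 and Aim2, and Tgm1 was higher (0.0579% and 0.00644%). This fit counts the gap between the shCTSL libraries as error. Without shCTSL replicate 1 the count was 96, without shCTSL replicate 2 it was 5012, and without either shSC library it was 0, so the number of calls depended on which libraries entered.

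Both shCTSL libraries agreed on 54 genes (0.348%), 45 lower (0.29%) and 9 higher (0.0579%) than in shSC. The lower genes included Ctsl, imprinted transcripts, and genes of endothelial and blood precursors. Those higher encoded proteins of the cytoskeleton, a cell death factor and regulators of development. The comparisons of the shCTSL libraries share the shSC libraries, and 0 genes were called in opposite directions. The agreed genes were 54.5% of the calls of replicate 2 and 1.08% of those of replicate 1. In all 54 the shCTSL values lay beyond both shSC values, which the choice of these genes on the same values makes likely. Over all genes tested this held at Day 2 for 45.5%. Median log2 fold changes of the 45 lower genes were -1.04 in replicate 1 and -0.87 in replicate 2, and those of the 9 higher genes were 1.08 and 0.69. The lower genes had a median exonic length of 4362 bases and the higher ones of 2601 bases. With length offsets, where 0.47% of all genes were called in both, 39 of the 45 and 6 of the 9 were still called. The 9 lost were Ak4, Bbc3, Cnot6l, Emcn, Foxl2, Pik3ip1, Rhoj, Socs6 and Stab1.

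**Figure D2:**
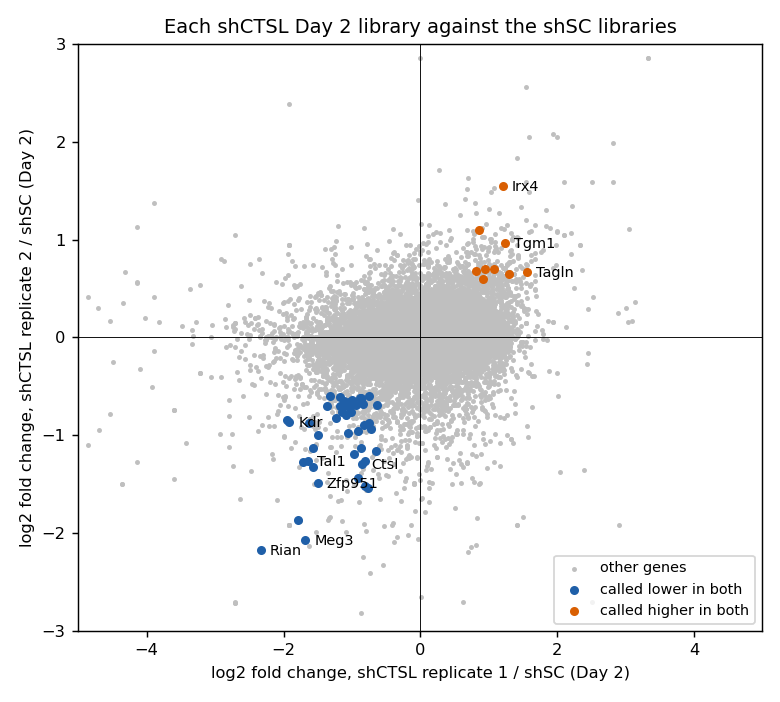
Log2 fold change against the shSC Day 2 libraries in shCTSL replicate 1 (horizontal axis) and replicate 2 (vertical axis), with 1 point per gene tested (36 outside the axes are not drawn), the 45 genes called lower in both in blue and the 9 called higher in both in orange. The grey cloud is wider along the axis of replicate 1, in which 5014 genes were called against 99 in replicate 2.

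The count of agreed genes rested on the controls, and 11 of the 54 were called with either shSC library left out. Without shSC replicate 1, 29 of the 54 were called in both libraries, and without shSC replicate 2, 11 were. These 11, singled out after their values were seen, were Aim2, Bmt2, Ctsl, Igf2, Kdr, Klhl13, Lncenc1, Meg3, Rian, Tgm1 and Zfp951. Under all 11 alternatives of the processing, the 54 genes kept their direction in both libraries. Their choice by direction and fold in the same libraries makes this likely. Alternatives that change the fold cutoff alone could not alter a direction.

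Rian and Meg3 were among the agreed genes furthest below control in both libraries. They are noncoding RNAs expressed from the maternal copy of the imprinted Dlk1-Dio3 region on chromosome 12. Rian (mm9, chr12:110842155-110899919) was at 6.14 and 7.004 CPM in shSC and at 1.29 and 1.45 CPM in shCTSL. Its log2 fold change was -2.34 ± 0.30 (SE) in replicate 1 and -2.17 ± 0.26 in replicate 2, with adjusted p-values of 7.64e-06 and 0.000635 in edgeR. Meg3 (mm9, chr12:110779211-110809936) was at 7.73 and 7.70 CPM in shSC and at 2.40 and 1.83 CPM in shCTSL. In percent of control Rian was at 19.8 and 22.2% and Meg3 at 31.1 and 23.8%, and the groups did not overlap. That held downward for 22.7% of all genes, and the choice of agreed genes on the same values makes it likely. Zfp951, a zinc finger gene, was at 6.24 and 6.70 CPM in shSC and at 2.28 and 2.299 CPM in shCTSL, a log2 fold change of -1.50 ± 0.24 and -1.49 ± 0.22. It was the only 1 of 49 tested genes named Zfp900 to Zfp999 that was called in both libraries, where 13 were called lower in replicate 1 and 3 in replicate 2. Of all genes, 16.7% and 0.476% were called lower. Medians of these 49 genes were -0.34 in replicate 1 and -0.24 in replicate 2. In both shCTSL libraries 29 of them lay below both controls and 2 above, where 22.7% of all genes lay each way. Reads of zinc finger genes with close copies could be split between them in the counting. Rian, Meg3, Zfp951 and Ctsl were also lower on the other days, which is described further down.

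Of 23 imprinted genes tested, 5 were called lower in both libraries and 0 higher: Rian, Meg3, Igf2, Mest and Magel2. Igf2, a paternally expressed growth factor, was at 303 and 309 CPM in shSC, 130 CPM in shCTSL replicate 1 and 173 CPM in replicate 2, a log2 fold change of -1.23 ± 0.10 and -0.82 ± 0.09. Mest, paternally expressed in mesoderm, was at 951 and 969 CPM in shSC and at 385 and 634 CPM in shCTSL. Magel2, a paternally expressed gene of the Prader-Willi region, was at 22.9 and 25.3 CPM in shSC and at 11.4 and 14.8 CPM in shCTSL. The 5 genes lie on chromosomes 6, 7 and 12. As a whole the imprinted list had medians of -0.92 in replicate 1 and -0.24 in replicate 2, with 4 members higher and 11 lower in replicate 1 and 5 lower in replicate 2. Of all genes, 15.5% were called higher and 16.7% lower in replicate 1, 0.476% lower in replicate 2 and 0.29% lower in both. Peg3, a paternally expressed zinc finger gene named after its values were seen, shows the gap between the libraries: it was at 1034 and 954 CPM in shSC, 168 CPM in shCTSL replicate 1 and 942 CPM in replicate 2.

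Genes of endothelial and blood precursors formed the largest set of agreed genes among the lists. Of 20 tested members, 13 were called lower in replicate 1, 12 in replicate 2 and 8 in both, and 0 were called higher in either. The share of all genes called lower was 16.7% in replicate 1, 0.476% in replicate 2 and 0.29% in both. Median log2 fold changes of the list were -0.90 in replicate 1 and -0.77 in replicate 2, against 0.00 over all genes, and -0.87 and -0.78 with length offsets. The 8 in both were Kdr, Tek, Cdh5, Pecam1, Tal1, Fli1, Emcn and Sox18. Without shSC replicate 1 the number in both was 4 (Cdh5, Kdr, Pecam1 and Sox18) and without shSC replicate 2 it was 1 (Kdr), with 6 and 1 called in replicate 2. The embryonic globins Hbb-bh1 and Hba-x were too low to test.

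Of the receptors of vascular growth factors, Kdr and Tek were called in both libraries. Kdr, the main VEGF receptor (mm9, chr5:76328852-76374483), was at 93.7 and 97.1 CPM in shSC, 25.3 CPM in shCTSL replicate 1 and 52.5 CPM in replicate 2. Both shCTSL values lay far below the controls, with log2 fold changes of -1.91 ± 0.13 and -0.86 ± 0.11 and adjusted p-values of 2.27e-07 and 0.00106 in edgeR. Replicate 1 minus replicate 2 was -1.05 on the log2 scale. Tek, the angiopoietin receptor, was at 34.0 and 36.3 CPM in shSC and at 17.0 and 22.3 CPM in shCTSL. Flt1 and Flt4, the other VEGF receptors, were called lower in replicate 1 alone. Flt1 was at 23.8 and 25.3 CPM in shSC, 7.38 CPM in replicate 1 and 24.2 CPM in replicate 2, so the second shCTSL library lay among the controls. Tie1, a receptor related to Tek, was called in replicate 2 alone, with 17.2 and 18.4 CPM in shSC, 13.3 CPM in replicate 1 and 10.4 CPM in replicate 2.

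Transcription factors of the same precursors followed. Tal1, required for blood formation (mm9, chr4:114729031-114744360), was at 25.6 and 25.8 CPM in shSC and at 8.25 and 10.7 CPM in shCTSL, log2 fold changes of -1.64 ± 0.24 and -1.26 ± 0.22. Fli1, an ETS factor, was at 13.4 and 15.5 CPM in shSC and at 6.77 and 8.30 CPM in shCTSL. Sox18, a factor of early vessels, was at 25.7 and 31.7 CPM in shSC and at 17.3 and 14.9 CPM in shCTSL. In these 3 the groups did not overlap. Over all genes 22.7% lay below both controls in this way, and the choice of agreed genes on the same values makes it likely. Etv2, the ETS factor that specifies the precursor, was at 18.3 and 19.6 CPM in shSC, 14.9 CPM in replicate 1 and 8.51 CPM in replicate 2, and was called in replicate 2 alone. Lmo2, a partner of Tal1, had the same order, with 15.5 and 15.8 CPM in shSC and 11.3 and 8.68 CPM in shCTSL. With length offsets Etv2, Lmo2 and Cd34 were called in both libraries and Emcn was not, which made 10 of the list, where 0.367% of all genes were called lower in both. Gata2 was at 42.2 and 35.7 CPM in shSC and at 29.8 and 34.8 CPM in shCTSL, and it was called in neither library. Gata1 had at most 0.398 CPM and gave no usable comparison.

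Genes of the endothelial surface and junctions made up the rest. Cdh5, the cadherin of endothelial junctions, was at 17.5 and 21.0 CPM in shSC and at 6.22 and 10.4 CPM in shCTSL. Pecam1, an adhesion molecule also present on mESCs, was at 21.3 and 24.1 CPM in shSC and at 11.3 and 14.0 CPM in shCTSL. Emcn, an endothelial sialomucin, was low, with 2.49 and 2.63 CPM in shSC and 1.35 and 0.936 CPM in shCTSL, and it was not called in replicate 1 with length offsets. Cd34, Erg and Runx1 were called lower in replicate 1 alone. Cd34 was at 15.4 and 18.9 CPM in shSC and at 11.1 and 11.2 CPM in shCTSL, and missed the test in replicate 2 with an adjusted p of 0.0961 in edgeR. Esam and Egfl7 split the shCTSL libraries. Esam, a junction protein called in replicate 2 alone, was at 8.20 and 9.45 CPM in shSC, 9.11 CPM in replicate 1 and 5.19 CPM in replicate 2. Egfl7, a secreted endothelial factor, was at 48.9 and 52.5 CPM in shSC, 64.7 CPM in replicate 1 and 34.1 CPM in replicate 2, neither of which passed the fold cutoff. Among agreed genes outside the list, Rhoj, Plxnd1, Stab1 and Adgrf5 are known from endothelium and were picked after their values were seen. Plxnd1, a semaphorin receptor, was at 64.9 and 70.0 CPM in shSC and at 31.0 and 43.0 CPM in shCTSL.

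**Figure D3:**
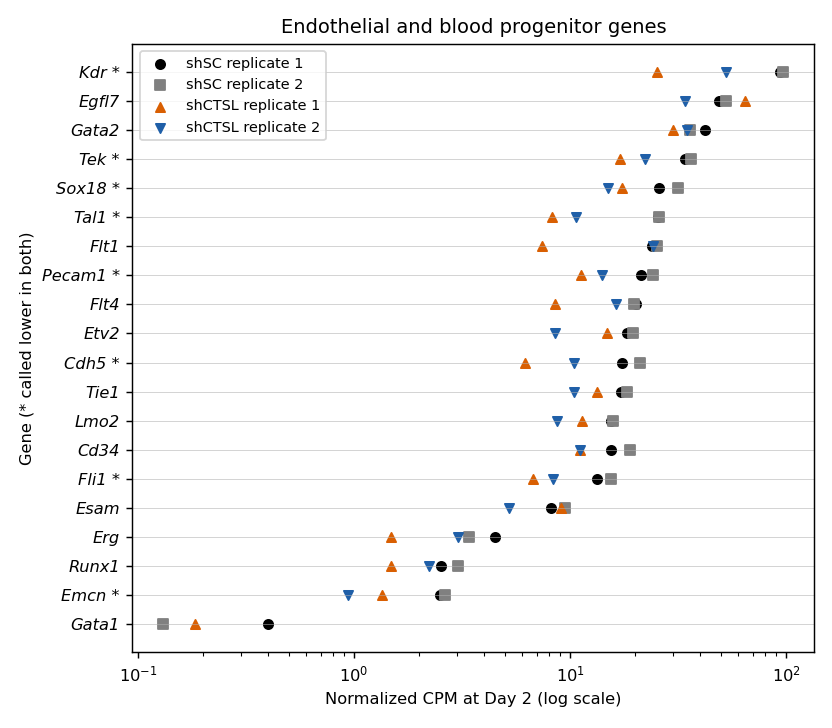
Normalized CPM of the 20 tested endothelial and blood progenitor genes (rows) on a log scale in the 4 Day 2 libraries, with an asterisk at the 8 genes called lower in both shCTSL libraries. At Kdr the shCTSL libraries lie at 25.3 and 52.5 CPM and the shSC libraries at 93.7 and 97.1 CPM, and Gata1 in shCTSL replicate 2 is at 0 and so not drawn.

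Promoters of these genes are shown because the genes moved together. RefSeq promoters of GRCm38.p6, a later build than the mm9 of the counts, so that these coordinates do not compare with those above, were found for 4 of the 8 genes called in both (Kdr, Tek, Tal1 and Emcn; of 2 entries for Tal1 the first is shown). Each is 300 bases written 5′ to 3′ on the strand of the gene. Capitals mark matches on either strand to AGATAA (read by GATA factors), GGAAG (read by ETS factors such as Etv2 and Fli1) and CANNTG (the E-box read by Tal1 and its partners).
Kdr promoter, chr5:75978406-75978705, minus strand, 1 GGAAG and 1 CANNTG: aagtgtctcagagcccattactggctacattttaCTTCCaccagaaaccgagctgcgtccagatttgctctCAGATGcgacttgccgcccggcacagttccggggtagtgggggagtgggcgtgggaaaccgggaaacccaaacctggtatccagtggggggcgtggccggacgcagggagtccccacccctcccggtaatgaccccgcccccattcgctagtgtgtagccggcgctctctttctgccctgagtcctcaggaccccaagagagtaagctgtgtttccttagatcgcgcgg
Tek promoter, chr4:94739039-94739338, plus strand, 1 AGATAA and 2 CANNTG: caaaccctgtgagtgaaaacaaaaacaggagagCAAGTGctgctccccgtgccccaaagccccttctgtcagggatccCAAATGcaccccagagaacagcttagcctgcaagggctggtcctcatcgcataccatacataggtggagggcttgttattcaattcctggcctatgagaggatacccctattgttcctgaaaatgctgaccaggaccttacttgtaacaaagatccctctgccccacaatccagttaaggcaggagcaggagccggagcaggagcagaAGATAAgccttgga
Tal1 promoter, chr4:115056176-115056475, plus strand, 1 AGATAA and 1 CANNTG: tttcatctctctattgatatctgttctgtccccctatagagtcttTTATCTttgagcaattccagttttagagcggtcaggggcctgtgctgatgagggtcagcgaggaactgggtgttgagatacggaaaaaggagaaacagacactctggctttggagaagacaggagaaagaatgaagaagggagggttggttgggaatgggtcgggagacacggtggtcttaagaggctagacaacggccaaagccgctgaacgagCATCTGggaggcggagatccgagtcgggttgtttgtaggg
Emcn promoter, chr3:137340828-137341127, plus strand, 2 GGAAG and 1 CANNTG: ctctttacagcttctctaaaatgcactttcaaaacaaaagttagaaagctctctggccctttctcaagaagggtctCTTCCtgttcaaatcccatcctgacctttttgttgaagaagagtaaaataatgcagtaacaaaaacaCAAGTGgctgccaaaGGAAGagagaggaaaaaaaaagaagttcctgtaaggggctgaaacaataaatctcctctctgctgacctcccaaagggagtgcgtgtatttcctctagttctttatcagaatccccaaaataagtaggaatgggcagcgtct
Matches occurred in 11.2% of 32851 RefSeq promoters for AGATAA, 71.4% for GGAAG and 72.3% for CANNTG, so an E-box in all 4 and GGAAG in 2 of 4 were common letters, and AGATAA in 2 of 4 was less common. A match describes the sequence and does not show binding.

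The other agreed lower genes had mixed roles. Lncenc1, a long noncoding RNA of naive mESCs, was at 141 and 150 CPM in shSC and at 74.5 and 63.7 CPM in shCTSL, with adjusted p-values of 1.1e-06 and 1.15e-05 in edgeR. Bmt2, a sensor of S-adenosylmethionine, was at 54.1 and 54.7 CPM in shSC and at 28.9 and 28.1 CPM in shCTSL. Its shCTSL libraries were at 53.2 and 51.7% of control. Aim2, a sensor of DNA in the cytosol, was at 76.4 and 84.9 CPM in shSC and at 40.1 and 47.4 CPM in shCTSL. Arhgap30 was at 8 and 8.71 CPM in shSC and at 2.52 and 3.45 CPM in shCTSL. Klhl13, an adaptor of a ubiquitin ligase, was at 156 and 149 CPM in shSC and at 59.2 and 93.8 CPM in shCTSL.

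Genes of the extracellular matrix, the germline and neurons also appeared among the agreed lower genes. Hapln1, which links hyaluronan to proteoglycans, was at 7.20 and 9.81 CPM in shSC and at 2.83 and 3.36 CPM in shCTSL. Adam12, a membrane metalloprotease, was at 5.91 and 5.82 CPM in shSC and at 1.97 and 2.68 CPM in shCTSL. Dazl, an RNA-binding protein of germ cells, was at 33.0 and 38.3 CPM in shSC and at 22.7 and 15.9 CPM in shCTSL. It was the 1 germline gene of 13 tested that was called in both libraries. Elavl4, an RNA-binding protein of neurons and the 1 of 18 neural genes called in both, was at 4.95 and 4.99 CPM in shSC and at 2.71 and 2.26 CPM in shCTSL. Of all genes, 0.29% were called lower in both. Fkbp6, which acts in meiosis, was the lowest in level, with 1.96 and 1.44 CPM in shSC and 0.492 and 0.468 CPM in shCTSL. Adgrf5, an adhesion receptor, was at 10.1 and 13.4 CPM in shSC and at 4.12 and 5.83 CPM in shCTSL. Tnfaip2 was at 17.3 and 19.6 CPM in shSC and at 8.80 and 9.36 CPM in shCTSL.

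Of the 9 genes higher in both shCTSL libraries, Tgm1 was the 1 also called in the comparison of 4 libraries. Tgm1, a transglutaminase of epithelia, was at 22.1 and 16.9 CPM in shSC and at 46.1 and 38.4 CPM in shCTSL, log2 fold changes of 1.23 ± 0.12 and 0.97 ± 0.12. Genes of the cytoskeleton were Tagln, Gsn and Prph. Tagln, an actin-binding protein of smooth muscle, was at 26.3 and 23.5 CPM in shSC, 73.8 CPM in shCTSL replicate 1 and 39.8 CPM in replicate 2. Gsn, which severs actin filaments, was at 15.9 and 17.7 CPM in shSC and at 35.4 and 27.1 CPM in shCTSL. Prph, an intermediate filament protein of neurons, was at 23.1 and 21.8 CPM in shSC and at 55.0 and 35.3 CPM in shCTSL. In all 3 replicate 1 was the highest library. Bbc3, a p53 target that promotes apoptosis, was at 24.9 and 23.3 CPM in shSC and at 46.6 and 39.2 CPM in shCTSL. It was the 1 of 16 p53 targets called in both, where 0.0579% of all genes were called higher, and was lost with length offsets. Dact2, an inhibitor of Nodal signaling, was at 129 and 118 CPM in shSC and at 218 and 198 CPM in shCTSL. Pik3ip1, an inhibitor of PI3 kinase, was at 20.5 and 20.9 CPM in shSC and at 39.0 and 31.3 CPM in shCTSL. The developmental factors Foxl2 and Irx4 were low, at 1.89 and 2.28 CPM and 1.13 and 0.744 CPM in shSC, and at 3.75 and 4.43 CPM and 2.22 and 2.81 CPM in shCTSL.

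Markers of pluripotency and differentiation named for RNA-seq in the study were not called at Day 2 when the 4 libraries were compared. Kdr, also known as Flk1, is one of them and was called lower in both single-library comparisons, with the values given above. Nanog, a factor of pluripotency, was at 124 and 128 CPM in shSC and at 98.9 and 96.5 CPM in shCTSL, 78.6 and 76.7% of control. It lay below control in both libraries with adjusted p-values of 0.00251 and 0.0372 in edgeR but did not reach 1.5-fold. Pou5f1, which encodes Oct4, was at 239 and 229 CPM in shSC, 388 CPM in shCTSL replicate 1 and 243 CPM in replicate 2, and was called higher in replicate 1 alone. Sox2 was at 183 and 195 CPM in shSC and at 162 and 169 CPM in shCTSL. Gata6, a factor of endoderm, was at 89.1 and 86.1 CPM in shSC, 72.2 CPM in replicate 1 and 91.0 CPM in replicate 2. Nes, a neural intermediate filament gene, was at 37.2 and 37.6 CPM in shSC and at 46.2 and 38.3 CPM in shCTSL.

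Most other gene lists held few or no genes called in replicate 2. None of 24 retinoic acid targets, 35 Hox genes, 23 pluripotency genes or 14 endoderm genes was called in replicate 2. Nor was any of 40 lysosomal genes or 21 subunits of the BAF and PBAF complexes. Of all genes 0.637% were called there, so 0 calls in lists of this size do not set them apart. Replicate 1 had calls in each of these lists, such as 5 retinoic acid targets higher and 5 lower, where 15.5% and 16.7% of all genes were. Medians of these lists in replicate 2 ranged from -0.19 for pluripotency to 0.14 for the lysosomal genes. Of the 40 lysosomal genes, 22 lay above both controls in both shCTSL libraries and 4 below. Counts above and below were 15 and 2 for Hox genes, 4 and 4 for BAF and PBAF subunits and 7 and 7 for retinoic acid targets. They were 4 and 6 for pluripotency genes and 2 and 3 for endoderm genes. Of all genes 22.7% lay above and 22.7% below. Of 12 cathepsins tested, Ctsl alone was called in both libraries, and 3 others were called higher in replicate 1, where 15.5% of all genes were. Of these 12, 7 lay above both controls in both shCTSL libraries and 1 below. The lateral mesoderm and cardiac list had medians of -0.15 and 0.12. In replicate 1, 1 of its 18 genes was called higher and 4 lower, close to the shares of all genes given above. In both libraries 0 of 18 were called, where 0.348% of all genes were, so this count does not set the list apart. This is a description of the lists and not a test between them.

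**Figure D4:**
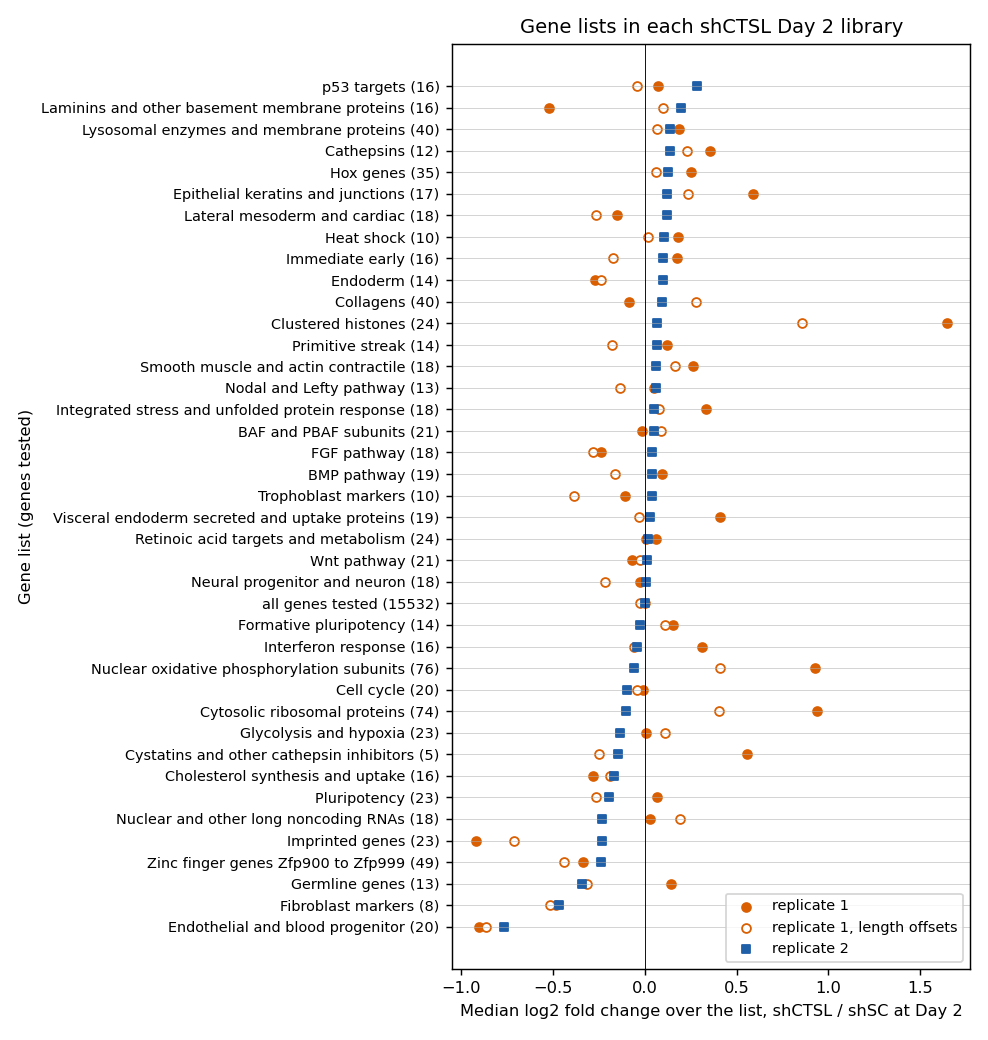
Median log2 fold change over the tested members of each gene list (rows, number tested in parentheses) against shSC at Day 2 for shCTSL replicate 1 (orange, open after removal of the length trend) and replicate 2 (blue). The endothelial and blood progenitor list has the lowest median in both libraries, -0.90 and -0.77, apart from the imprinted genes at -0.92 in replicate 1, and the clustered histones reach 1.65 in replicate 1 alone.

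The levels of Day 0 and Day 4 did not enter the Day 2 fold changes, although these libraries share the filter and the estimate of the spread with the calls that chose the 54 genes. They show which of the Day 2 differences were present before and after. At Day 0, 35 of the 45 lower genes had a lower mean in shCTSL, and 9 were called lower, where 1.11% of all genes were (1.36% in either direction). At Day 4, 40 of the 45 had a lower mean and 10 were called lower, where 3.1% of all genes were (5.94% in either direction). Medians of the 45 genes were -0.32 at Day 0 and -0.37 at Day 4. Those called lower on both other days were Ctsl, Rian, Meg3 and Zfp951. Rian was at 7.85 and 6.69 CPM in shSC and at 2.01 and 2.53 CPM in shCTSL at Day 0, and at 6.67 and 5.96 CPM and 0.812 and 1.23 CPM at Day 4. Its 6 shCTSL libraries thus all lay below its 6 shSC libraries. Zfp951 was at 11.5 and 12.7 CPM in shSC and at 3.58 and 3.48 CPM in shCTSL at Day 0, and at 8.88 and 8.39 CPM and 3.73 and 4.67 CPM at Day 4.

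Of the 9 higher genes, 4 had a higher mean in shCTSL at Day 0 and 0 were called, where 0.251% of all genes were. At Day 4 all 9 had a higher mean and 4 were called higher (Pik3ip1, Prph, Tagln and Tgm1), where 2.85% of all genes were. Tagln was at 27.8 and 32.7 CPM in shSC and at 35.6 and 30.2 CPM in shCTSL at Day 0, where the groups overlapped. At Day 4 it was at 61.2 and 47.1 CPM in shSC and at 146 and 179 CPM in shCTSL. The only agreed genes called in the opposite direction on another day were Pramef25 and Gm13119, members of a family of near copies on chromosome 4. They were lower at Day 2 and higher at Day 4, and their counts are uncertain because reads could be shared between copies. Pramef25 was at 4.88 and 4.29 CPM in shSC and at 2.71 and 1.57 CPM in shCTSL at Day 2, and at 2.70 and 2.77 CPM and 4.11 and 5.31 CPM at Day 4.

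The median of the 20 endothelial and blood genes was -0.06 at Day 0 and -0.12 at Day 4, with 1 called lower on each day (Sox18 at Day 0 and Erg at Day 4). Of all genes, 1.11% were called lower at Day 0 and 3.1% at Day 4. The 8 genes called in both Day 2 libraries all had a lower mean in shCTSL at Day 4, with log2 fold changes from -0.42 for Cdh5 to -0.04 for Sox18. Of these, Cdh5, Tek (-0.40) and Pecam1 (-0.37) had adjusted p-values of 0.0150, 0.0242 and 0.00727 in edgeR but did not reach 1.5-fold. Pecam1 was also at -0.46 at Day 0, with an adjusted p of 0.00696 in edgeR, and Sox18 was at -1.15. Kdr was near 2 CPM in all Day 0 libraries, from 2.001 to 2.31 CPM. At Day 4 it was at 109 and 109 CPM in shSC and at 103 and 82.4 CPM in shCTSL, a log2 fold change of -0.23. Tal1 was at 12.3 and 13.5 CPM in shSC and at 14.6 and 9.84 CPM in shCTSL at Day 4, so the groups overlapped. Etv2 was at 1.72 to 2.79 CPM in the 8 libraries of Day 0 and Day 4 and at 8.51 to 19.6 CPM in those of Day 2. Igf2 was higher at later days in both lines, with 18.0 to 19.5 CPM at Day 0 and 1009 to 1316 CPM at Day 4, and its log2 fold change was 0.00 at Day 0 and -0.26 at Day 4.

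**Figure D5:**
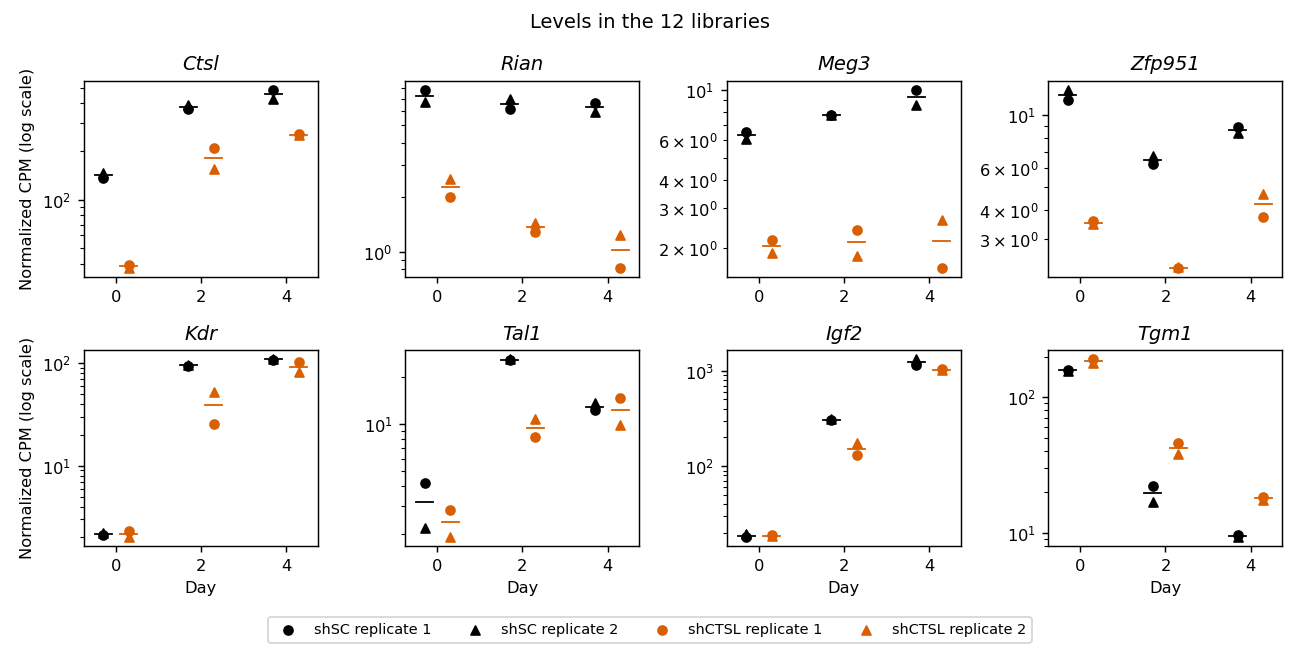
Normalized CPM on a log scale of 8 genes (panels) in the 12 libraries by day, with shSC in black, shCTSL in orange, circles for replicate 1, triangles for replicate 2 and bars at the group means. Ctsl, Rian, Meg3 and Zfp951 are lower in shCTSL on each day, whereas Kdr and Tal1 part at Day 2, at 25.3 and 52.5 CPM against 93.7 and 97.1 CPM for Kdr.

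Whether the Day 2 difference exceeded that on the other days was tested as the Day 2 difference minus the mean of the Day 0 and Day 4 differences. With the shCTSL Day 2 libraries as 1 group of 2, 0 genes were called in edgeR, and 1223 had an unadjusted p under 0.05. With each as its own group, so that the gap between them does not count as error, 320 genes were called (2.06%). Among them were 13 of the 45 agreed lower genes (background 1.17%) and 3 of the 9 higher ones (0.895%), and 7 of the 20 endothelial and blood progenitor genes. The agreed genes were chosen on the same Day 2 values, so these counts are not independent of the choice. Kdr had a difference of -1.27 on the log2 scale, Tal1 of -1.24 and Igf2 of -0.90, with adjusted p-values of 0.00707, 0.0156 and 0.000971 in edgeR's second fit. In the first fit the adjusted p of each was 0.597. The second count fell with either shSC Day 2 library left out, and further without replicate 2. The difference between the days thus rests on both controls and on how the shCTSL pair is treated.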

How the data were processed

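Poly(A) RNA was sequenced from 12 samples in 6 groups of 2 biological replicates, taken from the sample labels. The read counts are whole numbers per RefSeq gene that the authors deposited without normalization. Per the submitters' processing notes and the study's methods, reads were aligned to mm9 with STAR 2.3.0e, filtered with SAMtools 0.1.19 and counted with featureCounts 1.6.2. The libraries were directional, but the strand setting of the counting is not stated in the methods read here, so overlapping and antisense genes cannot be told apart.

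Counts were fitted in R 4.3.3 with edgeR 4.0.16 (quasi-likelihood, TMM, filterByExpr with a minimum count of 10). All 12 libraries entered with a mean per group, either with 6 groups (6 residual degrees of freedom) or with the shCTSL Day 2 libraries as separate groups, 7 in all (5 residual degrees of freedom). p-values were adjusted by the Benjamini-Hochberg method over 15532 genes. With 2 libraries per group the precision is set by the spread shared over all groups. Normalized CPM are counts scaled by library totals and TMM factors. The fit was also run on simulated counts in which both shCTSL Day 2 libraries shared the same mean. That run held no departing replicate, so it does not show how the fit handles replicate 1.

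The comparison, the gene lists and the rules for naming genes were chosen with earlier results of these data known. Genes named were Ctsl and the markers of the study, every gene called in the comparison of 4 libraries, up to 15 genes in each direction agreed on by both shCTSL libraries, the 10 largest differences between these libraries in each direction, and list members. Predicted loci were left out except where the text says why. Exonic lengths (GENCODE M1, mm9) were found for 15140 of the genes tested. Length offsets removed a loess trend (span 0.3) of each library. Alternatives were RLE, DESeq2 1.42.0, other filters and cutoffs, a Day 2 fit, the replicate number, length offsets, limma-voom (limma 3.58.1) with quality weights and each Day 2 library left out. Figures were drawn with matplotlib 3.10.9.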

Additional observations from a re-analysis of the deposited data

Results flagged for a closer look

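For 21 genes among those agreed on by both shCTSL libraries or in the endothelial and blood progenitor list, the Day 2 difference between the lines departed from the mean difference of Day 0 and Day 4 in the edgeR fit that treats each shCTSL Day 2 library as its own group. In that fit 2.06% of all genes were called for this difference. The agreed genes were chosen on the same Day 2 values, so their number here is not independent of that choice. The values are Day 2 minus the other days on the log2 scale. Among endothelial and blood genes they were -1.27 for Kdr, -1.24 for Tal1, -0.80 for Etv2, -0.80 for Lmo2, -0.74 for Flt4, -0.72 for Tie1 and -0.66 for Cd34. Among imprinted genes they were -0.90 for Igf2 and -0.73 for Magel2. Other genes lower at Day 2 were Sox9 at -1.26, Cyp2b23 at -1.26, Dazl at -0.96, Elavl4 at -0.89, Arhgap30 at -0.87, Tmtc2 at -0.81, Cnot6l at -0.71, Slc25a40 at -0.66 and Lncenc1 at -0.66. Some of them were also lower in shCTSL on another day. Arhgap30 had a log2 fold change of -1.12 at Day 0 and -0.13 at Day 4. Lncenc1 was at -0.53 at Day 0, and Tmtc2 was at -0.69 at Day 4. Genes higher at Day 2 were Prph at 0.72, Dact2 at 0.71 and Bbc3 at 0.61, of which Prph was also called higher at Day 4. Sox9, a factor of cartilage and the neural crest, was at 0.124 to 0.737 CPM at Day 0, 22.8 and 23.9 CPM in shSC Day 2 and 12.2 and 14.4 CPM in shCTSL Day 2, so its Day 0 difference rests on few reads. Day 0 levels were also low for others of these genes, such as Tie1 (0.867 to 1.47 CPM), Lmo2 (1.18 to 2.09 CPM) and Tmtc2 (0.746 to 1.68 CPM). In the fit that counts the gap between the shCTSL Day 2 libraries as error, 0 genes were called by edgeR, with 1223 at an unadjusted p under 0.05, and 5 by DESeq2.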

How the results depend on the processing

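Counts of calls moved as follows, and the causes were not tested. The comparison of 4 libraries (10) gave 125 with DESeq2, 60 without a filter, 0 in a Day 2 fit, 2 at a log2 fold change of 1.5, 42 with length offsets, 0 with limma-voom weights and 0 to 5012 with 1 library left out. Replicate 1 (5014) gave 8366 without a fold cutoff, 414 at log2 1.5 and 3024 with length offsets, and 4717 to 4768 with 1 control left out. Replicate 2 (99) gave 54 with DESeq2, 186 without a filter, 323 in a Day 2 fit, 192 without a fold cutoff, 9 at log2 1.5 and 18 to 60 with 1 control left out. Agreed genes (54) were 33 with DESeq2, 87 without a filter, 134 in a Day 2 fit, 117 without a fold cutoff, 3 at log2 1.5 and 11 to 33 with 1 control left out. Of the 54, 31 were called with DESeq2, 54 with RLE and 45 with length offsets. The difference between the shCTSL libraries (4627) gave 7271 without a fold cutoff, 398 at log2 1.5, 2565 with length offsets and 4530 to 4532 with 1 control left out. Endothelial genes in both (8) were 4 with DESeq2, 0 at log2 1.5 and 1 to 4 with 1 control left out, and those in replicate 2 (12) were 5, 0 and 1 to 6. Agreed genes also called in the same direction on another day (19) were 11 with DESeq2, 35 without a filter, 69 without a fold cutoff, 2 at log2 1.5 and 7 to 14 with 1 control left out. The Day 2 difference against the other days (320, each shCTSL library on its own) gave 203 with DESeq2, 1803 without a fold cutoff, 31 at log2 1.5 and 11 to 145 with 1 control left out. As 1 group (0) it gave 5 with DESeq2 and 0 to 3279 with 1 library left out.

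Of 2200 values of single genes under the alternatives, 1773 kept direction and side of the threshold, 396 no longer passed it, 23 newly passed it and 8 changed sign, none of them at a called value. These were Esam in replicate 1 (-0.0025 with RLE, -0.00469 with DESeq2, -0.12 with length offsets, -0.058 to 0.15 with 1 control left out), Flt1 in replicate 2 (0.011 with the replicate block, -0.063 to 0.023 with 1 control left out), Gata1 in replicate 1 (-1.08 to 0.47 with 1 control left out) and Gata6 over 4 libraries (-0.28 to 0.063 with 1 shCTSL library left out). The replicate number is a label only: deviations of same-numbered Day 2 libraries correlated at -0.13 and over the 15 pairs of groups from -0.47 to 0.26. With the replicate block the comparison of 4 libraries gave 0 calls, replicate 1 gave 5119, replicate 2 gave 99 and both gave 44. Counts are limited by having 1 library per shCTSL comparison, by 2 controls and by low reads at genes such as Gata1, Fkbp6 and Irx4.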

Other observations

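The respiratory chain and ribosomal lists also had medians above 0 at Day 4, where both shCTSL libraries enter as a group, at 0.34 and 0.23 on the log2 scale, with 4 of 76 and 4 of 74 genes called higher, where 2.85% of all genes were. At Day 2 their replicate 2 medians were -0.06 and -0.10. The epithelial keratin and junction list had medians of 0.59 in shCTSL Day 2 replicate 1, 0.12 in replicate 2 and 0.50 at Day 4, with 9, 1 and 7 of 17 genes called higher and 1, 0 and 0 called lower. Of all genes 15.5, 0.161 and 2.85% were called higher in these comparisons. The list of smooth muscle and actin genes, which holds Tagln, had medians of 0.26, 0.06 and 0.36 in the same order, with 6, 1 and 6 of 18 genes called higher and 2, 0 and 0 called lower. Median log2 fold changes at Day 4 also ran with exonic length, from 0.26 in the group of shortest genes to -0.26 in the longest, and at Day 0 from 0.03 to -0.13. The part of this trend in the list medians at Day 4 was not tested.

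Stra6, the cellular uptake receptor for retinol and a target of retinoic acid, was at 224 and 227 CPM in shSC and at 147 and 167 CPM in shCTSL at Day 2, with adjusted p-values of 0.000177 and 0.061 in edgeR, so that replicate 2 did not pass. Cyp26a1, which degrades retinoic acid, was at 1323 and 1282 CPM in shSC and at 1842 and 1477 CPM in shCTSL. Both genes were chosen after their values were seen.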
